A study of Mus musculus with 4 samples.

Results

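The genes described here are those whose transcripts were concentrated in 1 of 4 mouse heart libraries, Sham replicate 2. They were chosen by their deposited values: an FPKM (fragments scaled for gene length and sequencing depth) of at least 1 and an estimated count of at least 100 in Sham replicate 2, and an FPKM there at least 8 times the highest of the other 3 libraries. Of 55401 genes in the table, of which 26412 had a count above 0 in a library, 37 met the rule. The libraries were made from poly(A) RNA of hearts taken at day 28. The Sham libraries (n = 2) came from mice whose chest was opened with nothing ligated (thoracotomy). The MI libraries (n = 2) came from mice operated on with ligation and labelled as having a myocardial infarction. The labels used here state no strain, sex, age or other treatment. The samples are labelled heart, while the series text speaks of infarcted tissue and normal left ventricle. The part of the heart taken for each sample is not stated. Nothing states that replicates came from separate animals. Because the rule used all 4 libraries, the height of these genes in Sham replicate 2 is a description and was not tested.

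By the rule, each of the 37 genes is at least 8 times higher in Sham replicate 2 than in Sham replicate 1, a library of the same group. Among the selected genes, some encode proteins of atrial muscle (Myl7, Myl4, Sln, Mybphl, Bmp10), some are genes of fat cells (Adipoq, Cfd, Cidec, Plin1, Retn, with Ucp1 of brown fat), and 4 are immunoglobulin genes. Others belong to none of these kinds. The 5 marker genes Myl7, Myl4, Bmp10, Adipoq and Ucp1 were all among the 37. In bulk tissue, more cells of a type and more RNA per cell cannot be told apart.

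Atrial and ventricular muscle cells of the heart share most contractile proteins but differ in their myosin light chains, in a regulator of the calcium pump and in the hormones and growth factors they secrete. Fat lies around the atria and the great vessels. White fat cells store lipid in droplets and secrete adipokines, and brown fat cells burn lipid to make heat through the uncoupling protein of their mitochondria.

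The sequences just upstream of the start sites of 5 selected genes are shown: the marker genes Myl7, Bmp10, Adipoq and Ucp1, and Mybphl, which holds the same motif as Bmp10. They are 250 bases each, 5′ to 3′ on the gene's strand, from RefSeq (GRCm38.p6). Capitals mark AGATAA, a sequence bound by GATA factors, and AGGTCA, a core sequence of nuclear receptor sites.
Myl7 (chr11:5898783-5899032, minus strand): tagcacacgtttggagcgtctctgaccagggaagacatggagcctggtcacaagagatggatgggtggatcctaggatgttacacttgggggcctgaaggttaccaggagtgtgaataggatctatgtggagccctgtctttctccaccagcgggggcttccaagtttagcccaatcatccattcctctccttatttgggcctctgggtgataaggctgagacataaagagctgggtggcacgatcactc
Bmp10 (chr6:87428744-87428993, plus strand): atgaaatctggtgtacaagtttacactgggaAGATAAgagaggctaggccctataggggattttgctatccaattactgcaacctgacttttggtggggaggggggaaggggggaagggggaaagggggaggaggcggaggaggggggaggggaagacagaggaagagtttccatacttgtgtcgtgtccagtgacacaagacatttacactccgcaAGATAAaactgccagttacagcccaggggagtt
Mybphl (chr3:108364661-108364910, plus strand): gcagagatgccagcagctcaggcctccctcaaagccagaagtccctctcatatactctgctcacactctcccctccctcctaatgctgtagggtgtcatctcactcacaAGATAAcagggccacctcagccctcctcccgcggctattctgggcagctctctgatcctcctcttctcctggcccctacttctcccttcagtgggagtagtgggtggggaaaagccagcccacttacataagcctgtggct
Adipoq (chr16:23146286-23146535, plus strand): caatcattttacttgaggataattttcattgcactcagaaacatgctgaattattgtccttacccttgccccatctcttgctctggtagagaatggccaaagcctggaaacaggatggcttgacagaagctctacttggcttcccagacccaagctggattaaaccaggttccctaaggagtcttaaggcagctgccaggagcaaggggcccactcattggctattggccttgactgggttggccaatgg
Ucp1 (chr8:83290098-83290347, plus strand): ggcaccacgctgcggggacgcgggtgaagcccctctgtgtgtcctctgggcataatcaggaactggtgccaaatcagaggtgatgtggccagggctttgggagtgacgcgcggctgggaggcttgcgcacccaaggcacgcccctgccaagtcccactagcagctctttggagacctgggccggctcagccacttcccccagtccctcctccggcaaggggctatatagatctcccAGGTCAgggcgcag

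Promoter sequences (250 bases before to 50 after the start site) were found for 23 of the 37 genes. In that window AGATAA, read on both strands, was present in 6 of them (26.1%): Bmp10, Hamp, Mybphl, Pck1, Retn and Sfrp5. It was present in 10.4% of 20968 promoters of all genes. AGGTCA was found in 5 (21.7%, against 15.0% of all promoters), among them Ucp1. For 1 of these 5, Lmntd1, the matched start site lay 179348 bases from the gene's 5′ end in the table. TATAAA, the TATA box, was found in 2 (8.70%, against 13.3%), Cxcl13 and Cyp2e1. TATTTAT, part of the sites of the muscle factor MEF2, was found in 1 (4.35%, against 5.09%). GGTGTGA, bound by T-box factors, was also found in 1 (4.35%, against 3.89%), Stard10. None of the 5 letter strings was in the stretch shown for Myl7 or Adipoq. A match describes letters only and shows no binding.

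The estimated counts of a library summed to between 66624106 (Sham replicate 2) and 75979320 (MI replicate 2). About 4 counts stood for 1 fragment, judging by the low values, since 1167 genes had exactly 4 counts in Sham replicate 2 and 311 genes had 3. A count of 12, about 3 fragments, was taken as the floor per library. In Sham replicate 2 the 37 genes held 0.323% of all counts, against 0.00471%, 0.00510% and 0.00449% in Sham replicate 1 and MI replicates 1 and 2. Myl4 and Myl7 made up 51.5% of the genes' summed count there. The FPKM of the 37 genes in Sham replicate 2 ran from 1.32 to 1128, with a median of 9.12. In the other libraries the highest value of any of them was 4.67.

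**Figure D1:**
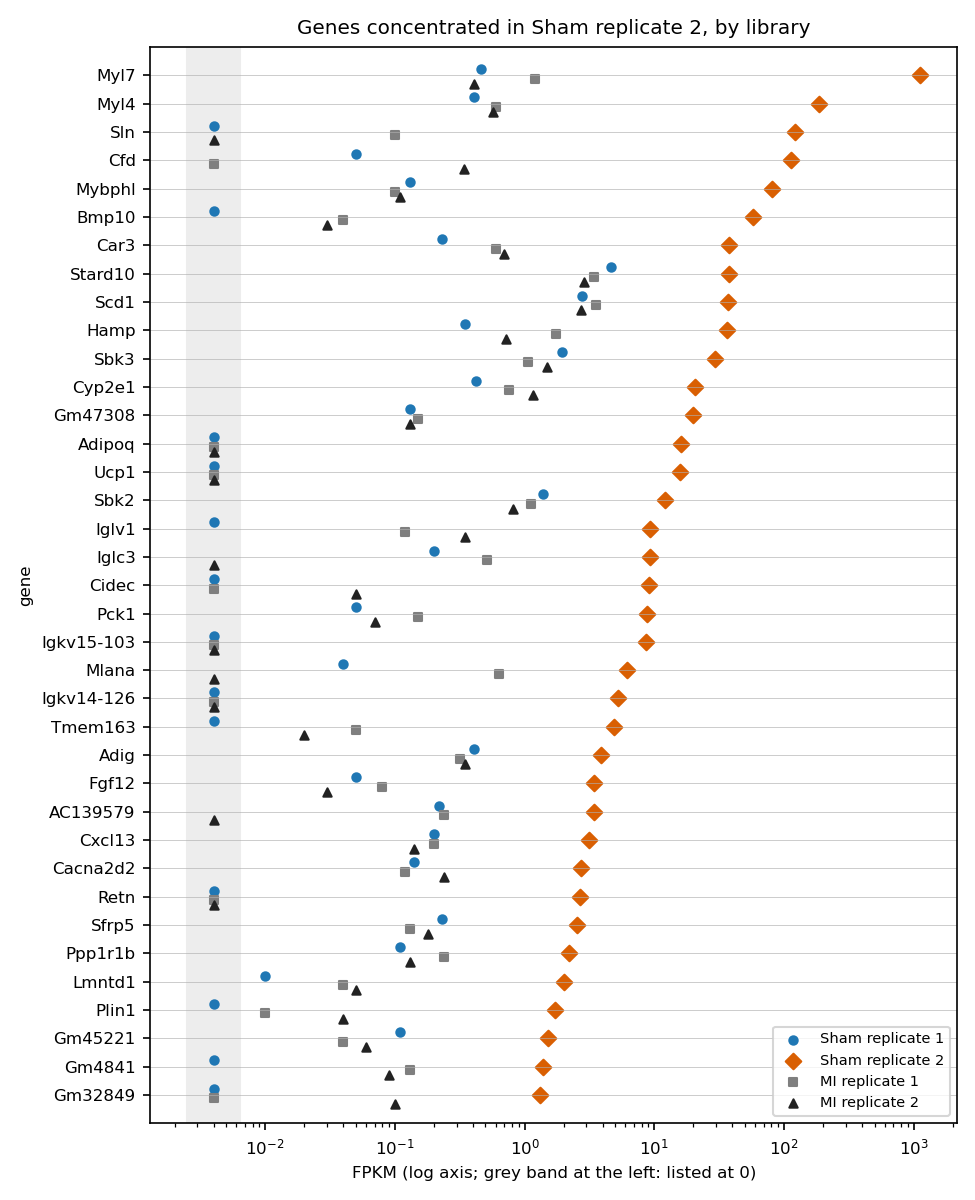
FPKM (log axis) of each of the 37 genes in the 4 libraries, 1 row per gene, sorted by the level in Sham replicate 2; values listed at 0 are drawn in the grey band. Sham replicate 2 (diamonds) lies between 1.32 and 1128 FPKM and the other 3 libraries lie at 4.67 or below. In each row the selection requires Sham replicate 2 to be at least 8 times the highest of the others.

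The rule was also applied with each other library as the high one. It was met by 5 genes for Sham replicate 1, 19 for MI replicate 1 and 8 for MI replicate 2. These are 0.0523%, 0.176% and 0.0774% of the genes that reached both minima in the library, against 0.371% for Sham replicate 2. The genes of MI replicate 1 were headed by the lung genes Scgb1a1 and Sftpc, so a second library had a set of genes of its own. Of the genes for Sham replicate 2, 16 were over 10 FPKM, against 1, 3 and 2 for Sham replicate 1 and MI replicates 1 and 2.

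**Figure D2:**
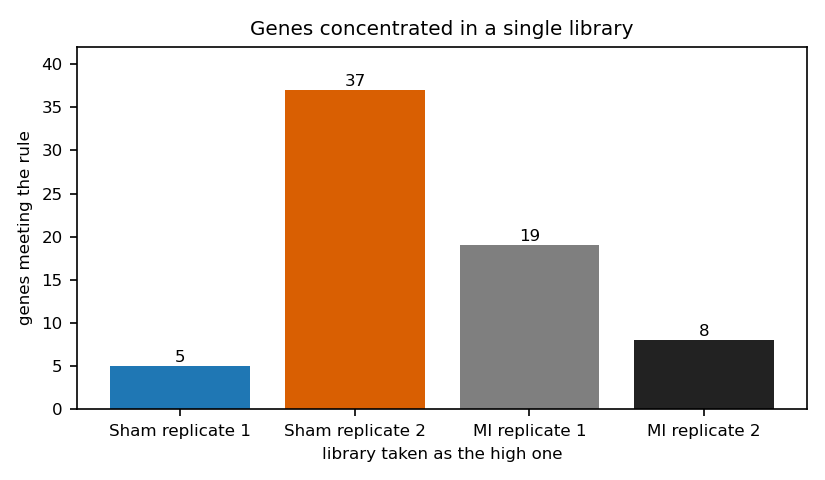
Number of genes that meet the same rule with each library in turn as the high one. Sham replicate 2 has 37 genes, more than the 19 of MI replicate 1, the 8 of MI replicate 2 and the 5 of Sham replicate 1.

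The myosin light chains of the atrium had the highest levels. Myl7, the regulatory light chain of atrial myosin (ENSMUSG00000020469, chromosome 11, 5896637 to 5898782, minus strand, positions as in the deposited table), had 0.46 FPKM in Sham replicate 1, 1128 in Sham replicate 2, 1.20 in MI replicate 1 and 0.41 in MI replicate 2. Pairs of values below follow this order. Myl4, the essential light chain of atrial myosin (chromosome 11, 104550663 to 104595753), had 0.41 and 186 FPKM in Sham and 0.60 and 0.57 in MI. In counts scaled for library size (CPM, with TMM factors), Sham replicate 2 was 1087-fold and 334-fold above the next library for these genes. The other 3 libraries had little of either transcript. They lay close together for Myl4, while for Myl7 MI replicate 1 was above Sham replicate 1 and MI replicate 2. Per length, Myl7 was 31.7% of the sum of Myl7 and its ventricular counterpart Myl2 in Sham replicate 2, and 0.0201%, 0.0545% and 0.0159% in Sham replicate 1 and MI replicates 1 and 2. For Myl4 and the ventricular Myl3 the share was 9.21%, against 0.0268%, 0.0338% and 0.0296%. Myl2 itself had 2289 and 2425 FPKM in Sham and 2200 and 2573 in MI. The ventricular light chain was thus as abundant in Sham replicate 2 as in the others, with the atrial ones beside it.

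**Figure D3:**
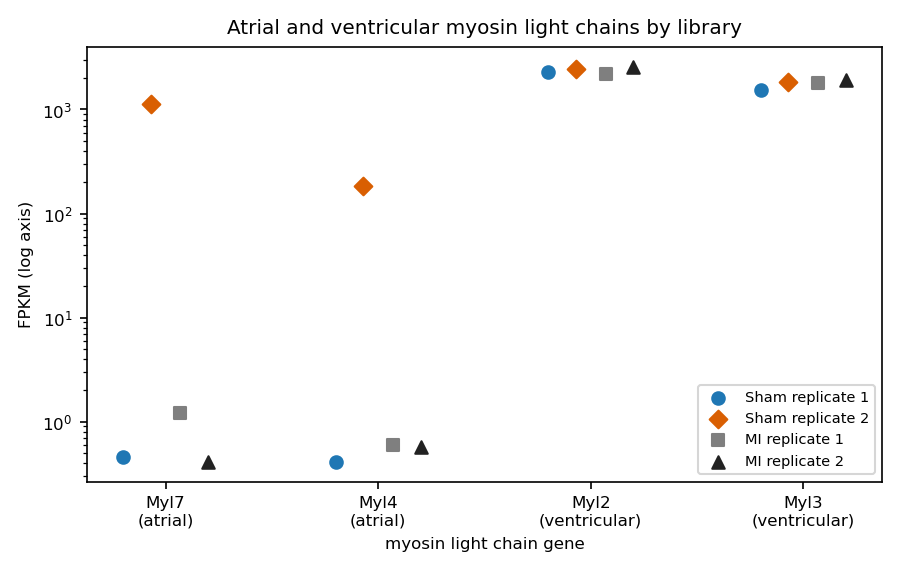
FPKM (log axis) of the atrial light chains Myl7 and Myl4 and the ventricular light chains Myl2 and Myl3 in each library. The atrial genes reach 1128 and 186 FPKM in Sham replicate 2 and stay at or below 1.20 elsewhere, while Myl2 and Myl3 are between 1531 and 2573 FPKM in all 4 libraries.

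Sln encodes sarcolipin, a small membrane protein that inhibits the calcium pump in atrial muscle. It had 121 FPKM in Sham replicate 2 (11604 counts), and 0, 11 and 0 counts in Sham replicate 1 and MI replicates 1 and 2. Bmp10, a growth factor secreted by the adult atrium (chromosome 6, 87428994 to 87437677), had 57.6 FPKM (18757 counts) there and 0, 16 and 12 counts in the others. Mybphl, a myosin binding protein of atrial muscle (chromosome 3, 108364911 to 108380057), had 80.3 FPKM there and 0.13, 0.10 and 0.11 in the others. All 3 were at or near the floor of 12 counts outside Sham replicate 2. A ratio for such a gene rests on a few fragments: that of Bmp10 was 1507-fold and that of Mybphl 559-fold on the CPM scale.

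Other selected genes of muscle, transport and ion channels were lower in level or less one-sided. Stard10, a lipid transfer protein, had 4.67 and 37.5 FPKM in Sham and 3.42 and 2.86 in MI. The protein kinases Sbk3 and Sbk2 are neighbours on chromosome 7, 854 bases apart on the same strand. Sbk3 had 1.93 and 29.7 FPKM in Sham and 1.07 and 1.5 in MI, and Sbk2 had 1.39 and 12.1 in Sham and 1.12 and 0.82 in MI. These 3 genes were measurable in every library, and in each of them Sham replicate 1 had the second highest value. Tmem163, a zinc transporter, had 4.93 FPKM in Sham replicate 2 and 0, 0.05 and 0.02 in the others. Cacna2d2, a subunit of voltage-gated calcium channels, had 0.14 and 2.74 FPKM in Sham and 0.12 and 0.24 in MI. Fgf12, an intracellular modulator of sodium channels, had 0.05 and 3.43 in Sham and 0.08 and 0.03 in MI. For Cacna2d2 and Fgf12 the value of Sham replicate 1 lay between those of the MI libraries, and for Tmem163 it was below both.

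The atrial list (18 genes, all tested) held 6 of the selected genes. Of the 12 others, 8 had their highest CPM in Sham replicate 2 and 0 their lowest. Their median log2 ratio of Sham replicate 2 to the median of the other libraries was 1.09, against -0.01 over all tested genes, of which 25.7% were highest in Sham replicate 2. These 12 genes were not selected, but the list was written with results of these data known. The median of the other libraries includes both MI libraries. In every list, a gene lower in MI can therefore have a positive ratio without being particular to Sham replicate 2. Kcnj5, for example, had 6.52 and 7.71 FPKM in Sham and 4.56 and 3.91 in MI, with a log2 ratio of 0.98. Dkk3, a secreted Wnt regulator, had 0.41 and 38.5 FPKM in Sham and 9.49 and 6.33 in MI. Kcnj3, a potassium channel of the atrium, had 0.87 and 5.20 in Sham and 0.89 and 0.81 in MI. Nppa, atrial natriuretic peptide, had 151 and 3515 in Sham and 2632 and 1855 in MI. Nppa was high in both MI libraries as well, so the rule did not take it. Nr2f2 and Nr2f1, transcription factors of atrial identity, had log2 ratios of -0.74 and -0.02. The ventricular list (14 genes) had a median of 0.01, with 3 genes highest and 4 lowest in Sham replicate 2. The list of sinoatrial node and conduction genes (10 tested and not selected) had a median of 0.52. Of the 10, 6 were highest and 2 lowest in Sham replicate 2. Shox2 had 0.54 FPKM there against 0.05, 0.17 and 0.21, and Hcn4 had 1.10 against 1.07, 0.84 and 0.88. On the CPM scale, used for these counts of genes, Hcn4 was not highest there, at 7.55 against 8.10 in Sham replicate 1. Tbx3 was lowest there, at 0.96 against 1.65, 1.17 and 1.37.

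**Figure D4:**
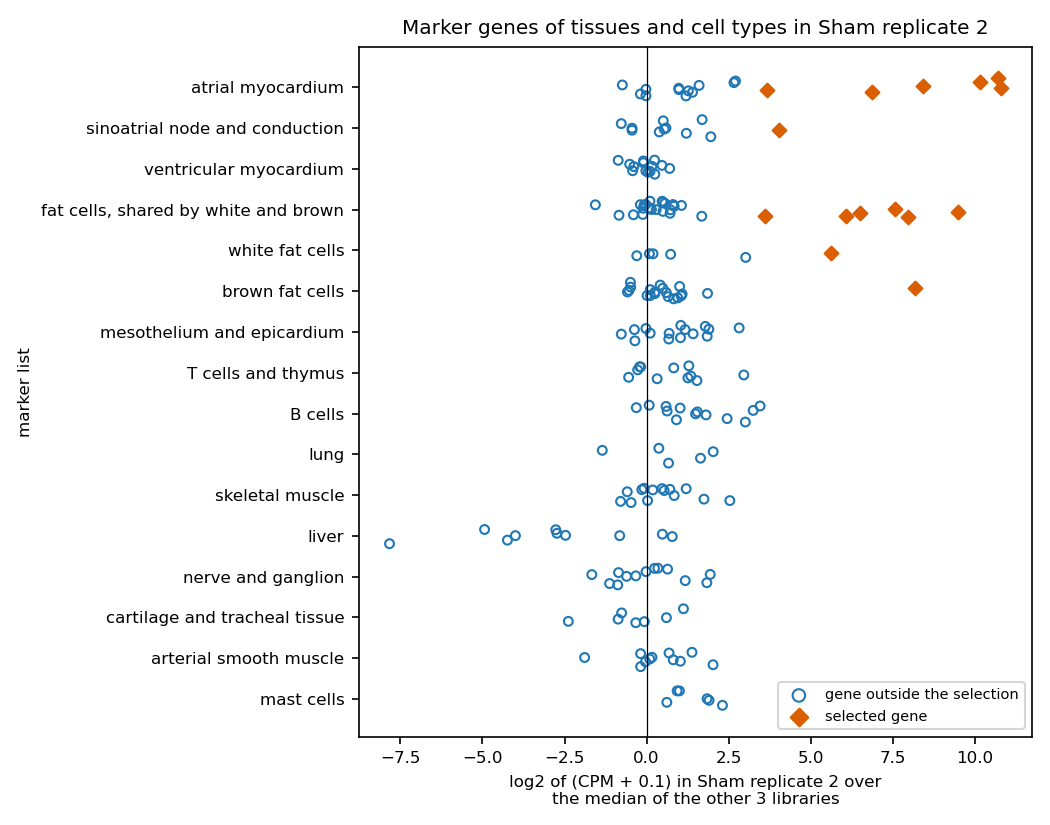
Log2 ratio of CPM (plus 0.1) in Sham replicate 2 to the median of the other 3 libraries for the genes of 16 marker lists; filled diamonds are selected genes, open circles the other tested genes. The diamonds of the atrial and fat lists lie far to the right, the ventricular genes lie around 0 (median 0.01) and most liver genes lie to the left (median -2.75).

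The genes of fat cells included some with no count at all outside Sham replicate 2. Adipoq, the fat cell hormone adiponectin (chromosome 16, 23146536 to 23158028), had 16 FPKM and 1602 counts in Sham replicate 2 and 0 counts in the other 3 libraries. Ucp1, the uncoupling protein of brown fat (chromosome 8, 83290352 to 83298452), had 15.8 FPKM and 1874 counts there and 0 in the others. Retn, the adipokine resistin, had 2.69 FPKM and 309 counts there and 0 in the others. Against the floor of 12 counts per library, Sham replicate 2 was at least 131-fold higher for Adipoq, at least 153-fold for Ucp1 and at least 25.2-fold for Retn. Cfd, the complement protease adipsin secreted by fat cells, was the most abundant gene of the group, at 113 FPKM in Sham replicate 2 and 0.05, 0 and 0.34 in Sham replicate 1 and MI replicates 1 and 2. Cidec and Plin1 encode proteins of the lipid droplet. Cidec had 9.12 FPKM (1228 counts) there and 0, 0 and 8 counts in the others, and Plin1 had 1.73 FPKM (587 counts) and 0, 3 and 14 counts. Adig, adipogenin, was less one-sided, with 0.41 and 3.90 FPKM in Sham and 0.32 and 0.35 in MI.

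Enzymes of lipid and glucose metabolism that fat shares with other tissues were also selected. Scd1, which desaturates fatty acids, had 2.79 and 37.2 FPKM in Sham and 3.57 and 2.71 in MI. Pck1, which makes phosphoenolpyruvate for glycerol and glucose synthesis, had 0.05 and 8.75 in Sham and 0.15 and 0.07 in MI. Car3, a carbonic anhydrase of fat and muscle, had 0.23 and 37.8 in Sham and 0.60 and 0.69 in MI. Cyp2e1, a cytochrome P450 of liver and fat, had 0.42 and 20.6 in Sham and 0.76 and 1.16 in MI. Sham replicate 1 lay below both MI libraries for Pck1, Car3 and Cyp2e1, and between them for Scd1.

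Of 26 tested genes of the list shared by white and brown fat, 22 were not selected. Their median log2 ratio was 0.22, and 10 were highest and 4 lowest in Sham replicate 2. The abundant Fabp4, Cd36 and Lpl, which heart endothelium and muscle also express, had ratios of -0.12, -0.19 and -0.07. Several genes of narrow fat expression were below the minima of the rule but had counts in Sham replicate 2 alone. Lgals12, a galectin of fat cells, had 102 counts, Adrb3, the fat adrenergic receptor, 30, Otop1 22 and Lep, leptin, 12, with 0 in the other 3 libraries. Other genes of the list went the other way. Aqp7, a glycerol channel of fat cells, had 4.07 and 1.69 FPKM in Sham and 5.92 and 5.88 in MI, and Trarg1 had 1.20 and 0.75 in Sham and 2.04 and 1.42 in MI. These 6 were picked after their values were seen. Of the white fat list only Retn was selected, and the 5 tested others had a median of 0.20 with 3 highest in Sham replicate 2. Of the brown fat list, Ucp1 was the only gene selected. The 19 tested others had a median of 0.41, with 7 highest and 4 lowest in Sham replicate 2. Prdm16 and Ebf2, transcription factors of brown fat, had log2 ratios of -0.48 and -0.54. Cidea had 39.5 and 46.6 FPKM in Sham and 20.8 and 23.4 in MI. Brown fat markers such as Cox8b, Cox7a1 and Fabp3 are also genes of heart muscle, and Cox8b had 606 and 548 FPKM in Sham and 562 and 566 in MI. Lhx8 was listed at 0 in every library, and Zic1 had 17 counts in Sham replicate 2 and 0, 16 and 0 in the others.

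The 4 immunoglobulin genes selected were 3 variable genes and 1 constant gene, parts of the light chains that B cells and plasma cells make. Igkv15-103 and Igkv14-126 (both chromosome 6) had 234 and 138 counts in Sham replicate 2 and 0 elsewhere. Iglv1 and Iglc3 of the lambda locus (chromosome 16) had 264 and 303 counts there, at most 12 and 19 in any other library. Variable genes resemble each other, so reads may have been split between them and their values are uncertain. Of 9 immunoglobulin genes with 100 or more counts in a library, all 9 had their highest CPM in Sham replicate 2. The 4 selected genes are among these 9, and for them the rule all but fixes this. For Igha, the constant region of IgA, the highest value was there on the CPM scale alone: it had 0 and 0.70 FPKM in Sham and 0.75 and 0.49 in MI. Ighd, the constant region of IgD, had at most 99 counts and was lowest in Sham replicate 2. It had 0.43 and 0.40 FPKM in Sham and 0.65 and 0.54 in MI. The summed CPM of all immunoglobulin genes was 135 there, against 6.14, 21.1 and 13.9 in Sham replicate 1 and MI replicates 1 and 2. Ighm, the constant region of IgM, had 1.09 and 29.7 FPKM in Sham and 4.89 and 2.78 in MI. In the B cell list, in which 0 of 13 genes were selected, 10 were highest in Sham replicate 2 (median log2 ratio 1.49). Ms4a1, a surface protein of B cells, was scarce, at 0.08 FPKM in Sham replicate 2 and 0.02 in each of the others. Cxcl13, the chemokine that draws B cells, was selected too, with 0.20 and 3.12 FPKM in Sham and 0.20 and 0.14 in MI.

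Hamp, the iron hormone hepcidin, had 0.35 and 36.4 FPKM in Sham and 1.74 and 0.72 in MI. Sfrp5, a secreted Wnt antagonist, had 0.23 and 2.54 in Sham and 0.13 and 0.18 in MI. Ppp1r1b, an inhibitor of protein phosphatase, had 0.11 and 2.22 in Sham and 0.24 and 0.13 in MI. In the deposited annotation 9 of the 37 genes (24.3%), 3 of them immunoglobulin variable genes, carried the term extracellular space, against 4.82% of tested genes. The term hormone activity was carried by 4 (10.8%, against 0.227%): Bmp10, Hamp, Adipoq and Retn. These terms were picked after the counts were seen, were not tested, and the 37 include 7 genes outside the tested ones. The remaining protein-coding genes were Mlana, Lmntd1 and Gm4841, named because every selected gene is accounted for. Mlana, a melanocyte protein, had 6.17 FPKM in Sham replicate 2 and 0.04, 0.63 and 0 in the others. The pigment cell genes Dct and Pmel did not share this pattern, at 0.75 and 0.59 FPKM against 0.61 to 0.89 and 0.16 to 0.56 in the other libraries, and the 4 tested genes of that list outside the selection had a median log2 ratio of 0.14. Lmntd1 had 2.01 FPKM there and 0.01, 0.04 and 0.05 in the others, and Gm4841 had 1.39 there and 0, 0.13 and 0.09.

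There were 4 genes that encode no known protein. Gm47308, AC139579, Gm45221 and Gm32849 each overlap a longer gene in the table on the same strand, Rab11a, Pgap2, Picalm and Nav2. Those longer genes were not raised in Sham replicate 2 to a like degree: Picalm had 12.8 and 14.6 FPKM in Sham and 12.4 and 12.8 in MI. Gm47308 had 154 counts in Sham replicate 2 and 2 in each other library. The values of the 4 are uncertain, since reads of overlapping genes cannot always be told apart. The 37 genes lay on 13 chromosomes. Sbk2 with Sbk3 was the only pair with no other gene between.

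Markers of further cell types also moved with Sham replicate 2, and their part in the result was not tested. The mesothelium and epicardium list (15 genes, 0 selected) had 9 genes highest and 2 lowest there. Its median log2 ratio was 1.03, and Upk3b, with the highest ratio, had 5.15 FPKM against 0.58, 2.60 and 0.74. The summed level of the list was 40.6 and 73.3 FPKM in Sham and 61.1 and 29.8 in MI. Most of that sum was the complement gene C3, with 26.7 and 47.4 FPKM in Sham and 40.9 and 21.8 in MI. Mast cell genes (6 tested) had a median of 1.42 with 4 highest, at summed levels of 2.36 and 5.03 FPKM in Sham and 2.42 and 1.0 in MI. The lung genes Sftpc, Sftpd and Sftpa1 were at 0 in both Sham libraries. They had 10033, 722 and 2212 counts in MI replicate 1 and 0, 0 and 4 in MI replicate 2. The 5 tested genes of the lung list had a median of 0.67. The liver list went the other way: 8 of 10 genes were lowest there, and Alb had 0 counts against 1439, 1953 and 1531. T cell and thymus genes had a median of 0.83 at low levels, with summed FPKM of 8.52 and 9.74 in Sham and 10.6 and 8.09 in MI. Skeletal muscle, nerve, cartilage and arterial smooth muscle lists had medians of 0.33, -0.02, -0.33 and 0.16.

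In the comparison of MI with Sham the selected genes stand on 1 Sham library. Of the 37, 30 passed the filter on low counts, which asks for counts in at least 2 libraries; the 7 others, among them Adipoq and Ucp1, did not enter the test. All 30 had negative log2 differences, with a median of -4.06 against 0.00 over all 18475 tested genes, a direction that the rule all but fixes. At a Benjamini-Hochberg adjusted p of 0.05, the quasi-likelihood test of edgeR called 0 of them, and 0% of all genes. At an unadjusted p under 0.05, 13 of the 30 were lower in MI, against 4.51% of all genes, and DESeq2 called 5 lower, against 1.26%. Since the rule used these values, nothing is read from either share. Myl7 had a log2 difference of -9.59 ± 3.38 (SE) with an adjusted p of 0.403, and Stard10 one of -2.91 ± 0.93 with an adjusted p of 0.367 in edgeR. The standard errors of such genes reflect the gap between the 2 Sham libraries. When Sham replicate 1 was left out, so that Sham replicate 2 stood alone against the MI libraries, edgeR called 11 of the 37 genes lower, which were all 11 genes called lower (0.0555% of those tested). The spread in that fit comes from the 2 MI libraries alone, with Sham replicate 2 assumed to vary like them, and the rule chose the genes on these same values, so nothing is read from the count. When Sham replicate 2 was left out, 29 of the 37 were tested and 0 were called, against 0.0254% of all genes, with the lone Sham library again assumed to vary like the MI libraries. Of these 29, 17 were higher and 12 lower in MI than in Sham replicate 1, with a median log2 difference of 0.33 against 0.05 over all genes. Among these, Bmp10, Tmem163 and Plin1 had 0 counts in Sham replicate 1 and at most 19 in an MI library.

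The rule has a threshold, and the genes near it were as follows. Just inside were Stard10, Sbk2 and Ppp1r1b, with FPKM ratios of 8.02, 8.71 and 9.25. Just outside were Jchain (7.66), Nap1l5 (7.61) and Hp (7.24). Jchain joins IgM and IgA molecules and had 0 and 2.68 FPKM in Sham and 0.35 and 0.33 in MI. Hp, haptoglobin, had 4.44 and 37.6 in Sham and 5.19 and 1.3 in MI. In all, 20 genes had ratios from 4 to 8, these 3 included, and among the others were Ighm, Igkc, Kcnj3 and Dkk3 and the T-type calcium channel gene Cacna1h. Of the 37 genes, 5 had 0 counts in all 3 other libraries, 5 had at most 12 and 27 had more. Those 27 had a median CPM ratio of 18.6, and 6 of them a ratio of at least 100.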

How the data were processed

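Poly(A) RNA of 4 mouse heart samples was sequenced in paired ends from libraries that mark strand, per the labels' protocols. The deposited table gives for each gene an estimated count, in whole numbers, and an FPKM, per the file headers; the authors' FPKM is scaled for gene length and depth. StringTie 1.3.4d, HISAT2 2.0.4, UMI-tools and cutadapt 1.9 are named, without role or order, per the submitters' processing notes. Which genome build was used, and whether counting used strand, is not given in the sources at hand. Of all gene identifiers 99.5% occur in GENCODE M21 (GRCm38), and 32 of the 37 selected genes have the same coordinates there.

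The groups come from the sample titles. In R 4.3.3, edgeR's filterByExpr (at least 10 counts per gene, 15 in total) removed low genes, and TMM scaled the estimated counts. The main test was the quasi-likelihood test of edgeR 4.0.16, 2-sided, without covariates, its p-values adjusted by Benjamini-Hochberg over every tested gene (threshold 0.05). That test gives no standard error. The SE printed was derived as the size of the log2 difference divided by the square root of the test's F statistic. DESeq2 1.42.0 and limma 3.58.1 on log2(FPKM + 1) were alternatives. The edgeR steps were tested on simulated counts in which no library stood apart within its group, unlike these data. DESeq2, limma and the selection were not tested in this way. For 2 against 2 libraries, the smallest 2-sided p of an exact permutation test is 0.33, and every p-value reflects only how far these libraries differ within a group, which can be technical. The floor of 12 counts covers counting error only, since PCR copies are not independent molecules.

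The selected genes, the 16 marker lists and the pigment cell list, which was added later, were chosen with earlier results of these data known. Named genes were the marker genes, the most abundant selected genes, those of each list and near the threshold, and neighbours; the others are named to account for every selected gene. Genes outside the selection were named as the most abundant of a list; Dkk3, Kcnj3, Nr2f1, Nr2f2, Shox2, Hcn4, Ms4a1, Upk3b, Zic1, Lhx8, Picalm, Igha, Prdm16, Ebf2, Dct, Pmel, Cacna1h and the lung genes were picked after their values were seen. Gene names are those of the table. Promoters were matched by symbol and chromosome, taking the start site nearest the gene's 5′ end.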

Additional observations from a re-analysis of the deposited data

How the results depend on the processing

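The number of genes selected was 37. It was 57 with a ratio of 4, 23 with a ratio of 16, 23 with an FPKM of at least 5 and 24 with a count of at least 400. With the ratio taken on TMM-scaled CPM it was 36, of which 35 were shared: Sbk2 (7.79) and Stard10 (7.21) fell below 8 and Jchain (8.24) rose above it. Leaving out 1 of the other libraries gave 42 to 52, each including the 37. In the comparison of all genes, edgeR called 0 (2150 at an unadjusted p under 0.05), as it did without the filter and as limma did on log2(FPKM + 1) and log2(FPKM + 0.1). DESeq2 called 635. Leaving out a library gave 0 to 14, with 14 without Sham replicate 1 and 5 without Sham replicate 2. The median log2 difference of the selected genes was -4.06, over the 30 that were tested. In limma on log2(FPKM + 1) it was -1.51 over all 37, where the median of all genes was 0.15. It ranged from -5.46 without Sham replicate 1 (37 genes) to 0.33 without Sham replicate 2 (29 genes). These medians are therefore not all over the same genes. The cause of the differences between tools was not tested.

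With the replicate number as a replicate block 0 genes were called and the median was -2.73. In the labels used here, same-numbered libraries share only a number. The correlation of their deviations from the group means was -0.06 across genes, which cannot decide whether they were handled together.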
